A study of Ovis aries with 24 samples.

Results

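COL2A1, COL11A1, CRTAC1 and FRZB, 4 genes (of 9155 on the array) whose products are known from cartilage matrix, were followed through skeletal muscle of lambs with and without the callipyge mutation. They were taken as every probe set that the platform table pairs with exactly 1 of these symbols, which gave 13 of 24128 probe sets: 4 for COL2A1, 7 for COL11A1, 1 for CRTAC1 and 1 for FRZB. Each probe set is described apart. The genes were selected on values measured on these same arrays. For COL2A1, COL11A1 and CRTAC1 those values are taken here to be the step from birth to 11 to 12 weeks in longissimus dorsi, and for FRZB the difference between the callipyge genotype and the others in that muscle at the later age, because those are the comparisons in which the genes are called. These values are therefore given as a description, with no test, and only other comparisons carry a p-value. Some of those share LD values of CC, NC and NN with the comparison that chose the gene. Their p-values are not free of the choice and carry no weight.

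Type II collagen, the product of COL2A1, is the main fibrillar collagen of cartilage. Type XI collagen, to which COL11A1 contributes a chain, is built into the same fibrils and limits their thickness. CRTAC1 encodes cartilage acidic protein, a secreted glycoprotein of cartilage matrix. FRZB encodes a secreted frizzled-related protein, which binds Wnt ligands outside the cell and keeps them from their receptors. Muscle fibres themselves are surrounded by connective tissue rich in types I and III collagen, which continues into tendon and fascia.

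The RNA came from cross-bred lambs and was hybridised to a bovine GeneChip, so sheep transcripts were measured with bovine probes. There were 24 arrays in 12 groups of 2. The back muscle longissimus dorsi (LD) was sampled from all 4 genotypes at the callipyge locus at T0 (birth, up to 5 days) and at T12 (11 to 12 weeks). The genotypes are the homozygote CC, the heterozygote CN with the mutation from its father, which shows the muscle enlargement, the heterozygote NC with the mutation from its mother, and the wild type NN. Supraspinatus (SS, a shoulder muscle) was taken at T12 from CN and NN. The hind limb muscles semitendinosus (ST) and the one coded SM, which the labels name in conflicting ways, were taken at T12 from NN only. Per the labels the arrays within a group are technical repeats, so each group counts as 1 value, and the p-values measure only the spread between group values. How many lambs stand behind an array is not known, since the protocol describes LD from 8 male lambs of a pair of genotypes.

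Values are MAS5 signal on a linear scale, scaled by the authors so that each array has the same trimmed mean. The median signal of an array was 47.4 to 59.7. No detection call was used, so a signal under 47.4 may not lie above background. Differences are log2 differences of group values with the standard error (SE) of a limma fit, and a probe set is called at an adjusted p under 0.05. Of the 13 probe sets, 10 passed the filter on dim values and were tested among 15664, namely all 4 of COL2A1, 4 of the 7 of COL11A1, CRTAC1 and FRZB. The samples are muscle by their markers: all 7 measured muscle fibre markers (of 9 listed) had signals of at least 9268.2 on every array.

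COL11A1 had its high values in LD at birth. On probe set Bt.21409.1.A1_at the T0 arrays gave signals of 1854.9 and 1810.1 in NC, 1188.6 and 1384.9 in NN, 1133.8 and 1003.4 in CC, and 781.1 and 602.0 in CN. In LD at T12 the signals were 301.2 and 241.6 in CC, 80.5 and 110.2 in NC, 88.7 and 62.0 in NN, and 71.2 and 43.1 in CN. Every T0 array lay above every LD array at T12. The fall from T0 to T12 was 19.5-fold in NC, 17.3-fold in NN, 12.4-fold in CN and 3.95-fold in CC. At T12 the CN arrays reach array medians and those of NN come near them, so the sizes in CN and NN are uncertain. The smaller step in CC comes with a T12 signal of 269.8, above the other 3 genotypes with no overlap of arrays.

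In the other muscles at T12, COL11A1 was measured at 209.4 and 226.0 in SS of NN, at 441.3 and 572.4 in SS of CN, at 67.3 and 158.8 in SM and at 87.0 and 108.2 in ST. SS of CN was thus the highest group at T12, between CN at birth and CC at T12 in LD. The 5 lowest groups, SM, ST and LD of NC, NN and CN at T12, each overlapped with their neighbours in the order, although the arrays of ST and of LD of NC lay above those of LD of CN. The groups above them did not overlap with their neighbours.

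COL2A1 showed the same course on 1 of its 4 probe sets. On Bt.21390.1.S1_at the LD signals at T0 were 717.5 and 707.2 in NC, 404.0 and 442.5 in NN, 311.2 and 343.2 in CC, and 218.5 and 178.6 in CN. At T12 they were 79.0 and 134.1 in CC, 48.6 and 131.9 in NC, 106.3 and 33.8 in NN, and 49.6 and 45.8 in CN. At T0 the genotypes stood in the same order as for COL11A1, and these arrays again lay above all LD arrays at T12, where neighbours in the order of genotypes overlapped. The fall was 8.90-fold in NC, 7.05-fold in NN, 4.14-fold in CN and 3.18-fold in CC, where the T12 side reaches array medians and the sizes are uncertain. In SS the signals were 77.7 and 58.6 in NN and 199.2 and 172.7 in CN. SM gave 48.1 and 49.2 and ST 26.2 and 38.0. At T12 the arrays of SS of CN stood above those of every other group.

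CRTAC1, measured by Bt.27196.1.A1_at, was also high only at birth. At T0 the signals were 301.7 and 360.2 in NN, 243.9 and 191.9 in CN, 165.5 and 147.7 in CC, and 137.0 and 163.9 in NC. This is a different order of genotypes from that of the collagens, with NN first and NC last. At T12 the 16 arrays of all muscles lay between 6.2 and 65.6, and 15 of them under 59.7, the highest array median. In LD the fall was 10.3-fold in NN, 9.32-fold in CN, 6.83-fold in NC and 4.77-fold in CC, and these folds are uncertain because the T12 values may not be above background. The arrays of SM (39.5 and 36.7) lay above those of SS and ST, but all of these were under 47.4, and no difference between muscles or genotypes is read from them.

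FRZB, measured by Bt.121.1.S1_at, went another way. It was well above the array medians on all 24 arrays (258.3 to 1442.4), and its technical SD of 0.110 (log2) was the smallest of the 13 probe sets. In LD at T0 the signals were 560.7 and 668.5 in NN, 519.4 and 510.8 in CC, 526.6 and 431.1 in NC, and 306.3 and 278.5 in CN. At T12 they were 686.6 and 823.3 in NN, 650.3 and 691.8 in NC, 637.2 and 577.5 in CC, and 268.8 and 258.3 in CN. CN lay under the other 3 genotypes at both ages with no overlap. In SS the NN arrays gave 850.4 and 901.4 and the CN arrays 525.9 and 482.0, again with no overlap. SM gave 889.9 and 897.8. ST stood highest with 1442.4 and 1411.1.

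**Figure D1:**
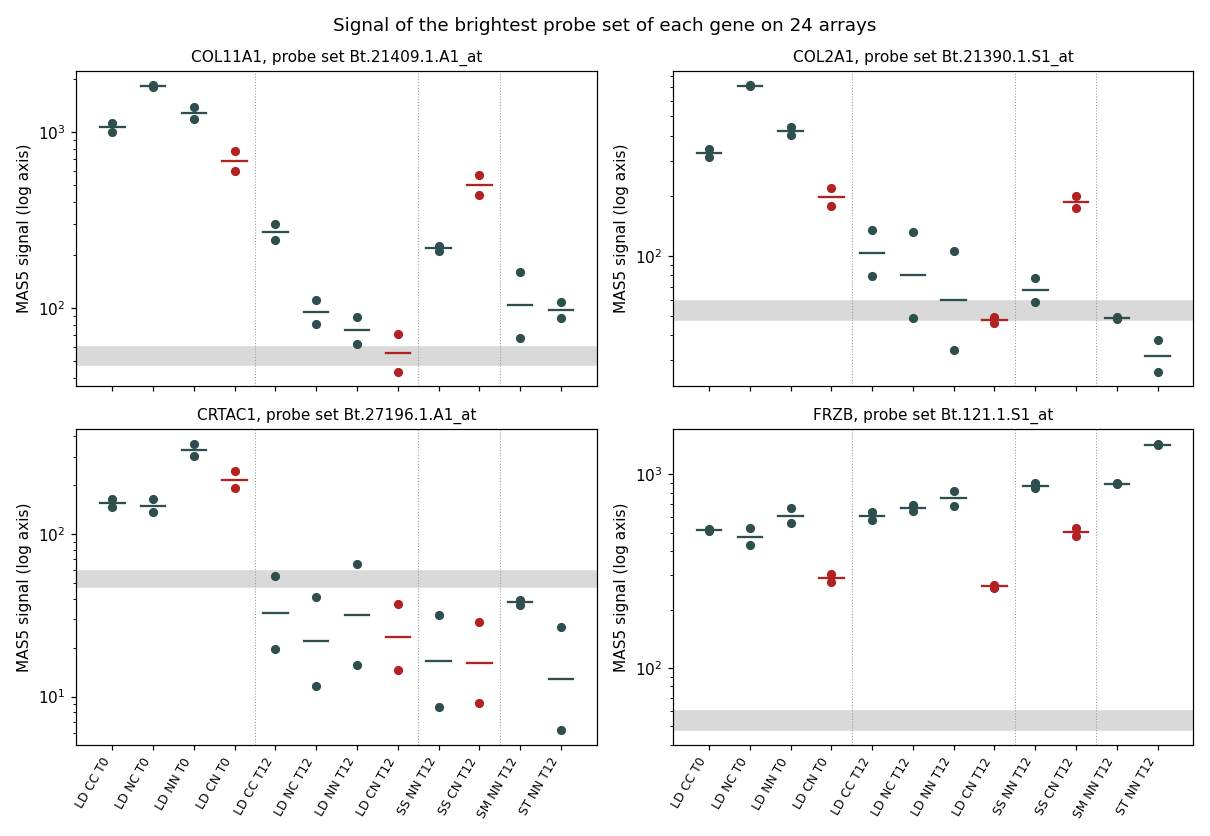
Each panel shows 1 gene on its brightest probe set, with MAS5 signal on a log axis against the 12 groups. Points are arrays, short lines are group values (the mean on the log scale), CN is red, and the grey band spans the array medians of 47.4 to 59.7. COL11A1, COL2A1 and CRTAC1 are high in the 4 LD groups at T0, while FRZB is lowest in LD of CN, at 292.1 and 263.5, and in SS lower in CN (503.5) than in NN (875.5).

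The step with age chose 3 of the genes and is described without a test. Over CC, NC and NN in LD the mean T12 minus T0 difference was −3.46 ± 0.40 (SE) for COL11A1, −2.80 ± 0.39 for CRTAC1 and −2.55 ± 0.30 for COL2A1. Of the 10 tested probe sets of the 4 genes 5 were called lower at T12, beside 5.79% of all tested probe sets (11.7% in either direction), and nothing is read from that count. FRZB was 0.34 ± 0.14 higher at T12 and did not pass (limma adjusted p = 0.146). For FRZB this comparison shares the T12 values of CC, NC and NN with the one that chose it. The p-value is therefore not free of that choice. The FRZB arrays at T12 lay above those at T0 in each of CC, NC and NN, while in CN they lay below, 263.5 against 292.1 as group values. The age step in CN minus that in the other genotypes was −0.49 ± 0.28 for FRZB, 0.49 ± 0.60 for COL2A1 and −0.17 ± 0.79 for COL11A1. Each holds a value that chose the gene, so no p-value is given. In that comparison 0% of all probe sets were called by limma, and 1392 of 15664 had an unadjusted p under 0.05. The COL11A1 value turned positive with NN alone as the comparator (0.48).

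The further probe sets of the collagens did not all repeat the course with age. For COL11A1, Bt.21409.2.S1_at had signals of 137.6 to 269.5 in LD at T0 and 57.1 to 144.5 at T12, with a mean step of −1.36 ± 0.25 over CC, NC and NN. On Bt.4956.1.S1_at the step was −1.18 ± 0.31, but in NN the arrays overlapped between the ages, and the CN groups went the other way, from 47.7 to 63.4, also overlapping. The other 4 probe sets of COL11A1 never exceeded 64.4 on any array, and 2 of them are of the kind (names ending in _s_at) designed to match more than 1 transcript. Their steps ranged from −3.03 to 2.99 over genotypes, with array pairs up to 3.84 apart in log2, so they carry no readable course.

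For COL2A1 the remaining 3 probe sets gave steps of −0.20 ± 0.23 (Bt.13030.1.A1_at), 0.74 ± 0.27 (Bt.13030.2.A1_at) and 0.16 ± 0.32 (Bt.27971.1.S1_at), none of them called and, as values of the choosing comparison, given without a test. Their highest signals were 143.7, 119.4 and 94.1. The fall described for COL2A1 rests on 1 probe set of 4. Collagen chains resemble each other in sequence, and whether transcripts of another collagen bind that probe set was not tested.

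**Figure D2:**
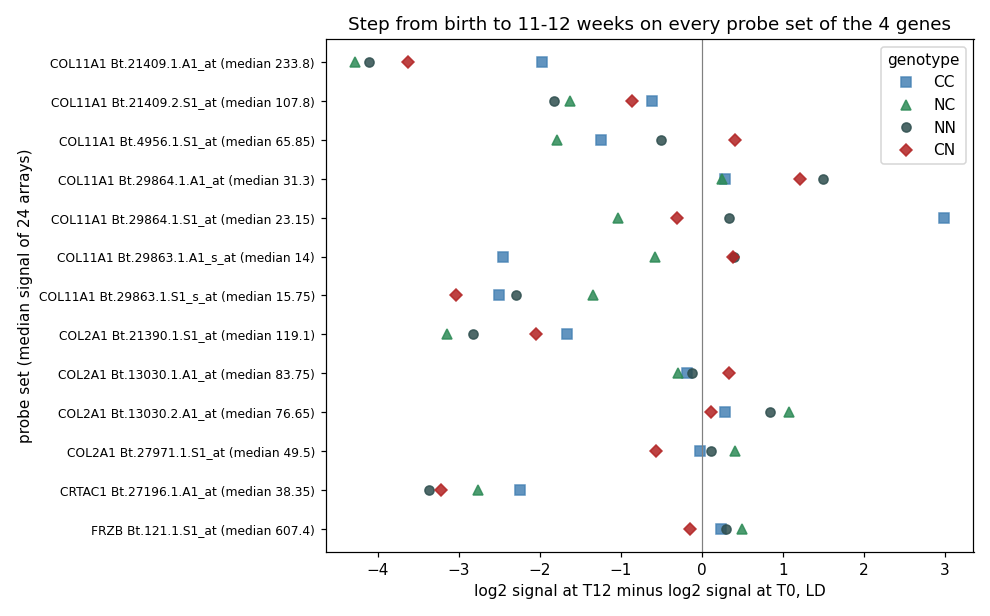
The horizontal axis gives the log2 signal at T12 minus that at T0 in LD, for each of the 13 probe sets (rows, with the median signal of 24 arrays in brackets) and each genotype (symbols). Points left of 0 are lower at T12. The first 2 rows, for COL11A1, the brightest COL2A1 row, CRTAC1 and the dim COL11A1 row Bt.29863.1.S1_s_at have all 4 genotypes left of 0. Bt.13030.2.A1_at of COL2A1 and the dim COL11A1 row Bt.29864.1.A1_at lie right of 0 in all 4 genotypes. The remaining rows of the figure have points on both sides.

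Callipyge (CN) lambs were then compared with the other genotypes. In LD at T0, FRZB was 0.86 lower in CN (−0.86 ± 0.20, adjusted p = 0.0915), with group signals of 292.1 against 476.5 to 612.2, and did not pass the threshold. It was called without LD CN T0 replicate 1 (−0.93, adjusted p = 0.0421), a fit in which CN enters as a single array. In LD at T12 the difference was −1.35 ± 0.20, a fold of 0.391. This is the value that chose FRZB and is a description. It was the only call among the 10 probe sets, beside 0.14% of all probe sets called lower and 0.179% called in either direction. Because FRZB was chosen on this value, nothing is read from the call. The call was lost with quantile normalization (−1.33) and with NN alone as comparator (−1.51). It was also lost without replicate 1 of LD CC T0, NC T0 or NN T0 (−1.35), of LD CC T12 (−1.33) or of LD NN T12 (−1.40), and without LD NC T12 replicate 2 (−1.34). In SS the CN value was 0.575 of the NN value, a difference of −0.80 ± 0.24 that did not pass (adjusted p = 0.828), in a comparison with 0% of probe sets called by limma and 656 of 15664 at an unadjusted p under 0.05. The FRZB difference in SS minus that in LD was 0.56 ± 0.31, given without a p-value because it holds the LD value that chose the gene.

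On their brightest probe sets COL11A1 and COL2A1 had lower signals in CN than in each of the other genotypes in LD at T0, but not past the threshold. The differences were −0.99 ± 0.56 for COL11A1 (adjusted p = 0.572) and −1.22 ± 0.42 for COL2A1 (adjusted p = 0.269), beside 0.172% of all probe sets called. At T12 in LD they were −1.16 ± 0.56 (adjusted p = 0.548) and −0.73 ± 0.42 (adjusted p = 0.645). The T12 values shrank to −0.42 and −0.33 against NN alone, and the CN arrays overlapped with those of NN for each gene. Other probe sets did not all share the direction: at T0 Bt.13030.2.A1_at of COL2A1 was 0.34 ± 0.39 higher in CN (adjusted p = 0.838), and at T12 Bt.4956.1.S1_at of COL11A1 was 0.55 ± 0.44 higher (adjusted p = 0.773). CRTAC1 at T0 gave 0.13 ± 0.55 (adjusted p = 0.965), and its sign turned without LD CN T0 replicate 1 (−0.04) or with NN alone as comparator (−0.61).

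In SS the brightest probe sets of the collagens stood the other way round. COL11A1 was 2.31-fold and COL2A1 2.75-fold higher in CN than in NN, with no overlap of arrays. As differences these were 1.21 ± 0.69 (adjusted p = 1) and 1.46 ± 0.52 (adjusted p = 0.981), neither past the threshold. The CN difference in SS minus that in LD was tested only after these values were seen, so its p-values carry no weight. It was 2.36 ± 0.89 for COL11A1 (unadjusted p = 0.0222, limma adjusted p = 0.899). For COL2A1 it was 2.19 ± 0.67 (unadjusted p = 0.0077, limma adjusted p = 0.734). Neither gene passed, and 0% of all probe sets did, with 778 at an unadjusted p under 0.05. The comparator was NN in SS but CC, NC and NN in LD. Among the alternatives that kept all arrays, the lowest values were 1.63 for COL11A1 and 1.79 for COL2A1. The second COL11A1 probe set, Bt.21409.2.S1_at, gave 0.68 ± 0.43 in SS and overlapped between CN and NN. The dim COL11A1 probe set Bt.29864.1.S1_at was lower in CN without overlap (−2.25 ± 1.81, not called). Higher in CN without overlap were Bt.4956.1.S1_at of COL11A1 (1.06 ± 0.54) and Bt.13030.1.A1_at (0.86 ± 0.39) and Bt.13030.2.A1_at (0.28 ± 0.48) of COL2A1, none called. Also higher in CN without overlap were the dim, untested COL11A1 probe sets Bt.29864.1.A1_at (32.65 against 5.518) and Bt.29863.1.S1_s_at (39.11 against 7.346). The dim COL2A1 probe set Bt.27971.1.S1_at went the other way, with 43.6 in CN and 78.0 in NN and no overlap (−0.84 ± 0.55, adjusted p = 1).

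**Figure D3:**
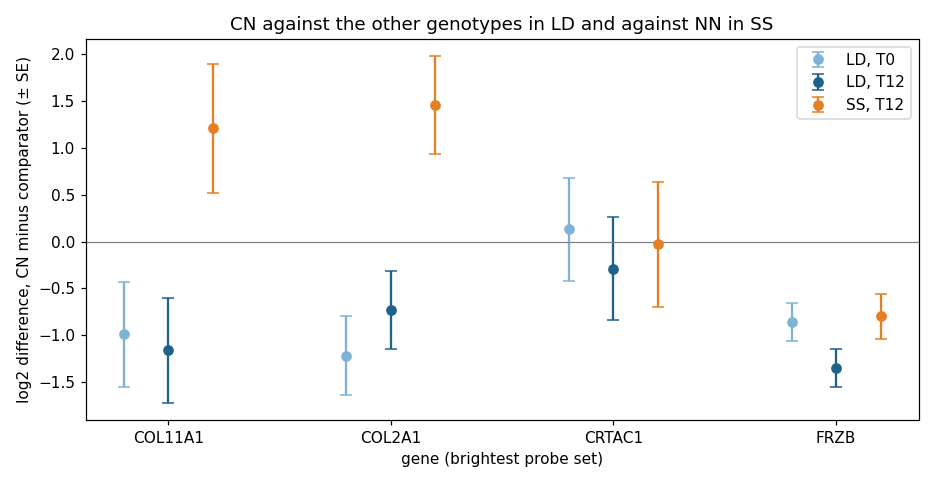
The vertical axis gives the log2 difference of CN from its comparator, with the SE of the limma fit as bars, for the brightest probe set of each gene. Comparators are CC, NC and NN in LD at each age and NN in SS. FRZB is below 0 in all 3 settings (−0.86, −1.35 and −0.80), while COL11A1 and COL2A1 are below 0 in LD and above it in SS.

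Among the T12 muscles without the CN genotype, FRZB had group signals of 606.6 to 751.8 in LD, 875.5 in SS, 893.8 in SM and 1427 in ST. SM and SS overlapped, and ST was 1.90-fold above LD of NN. The F test over the 4 muscles did not call it (adjusted p = 0.0799, in a test that called 1.28% of probe sets). SS differed from SM and ST by −0.37 ± 0.21 (adjusted p = 0.545, 0.996% called) and from LD by 0.38 ± 0.20 (adjusted p = 0.395, 2.96% called). COL11A1 was 1.12 ± 0.60 higher in SS than in SM and ST (adjusted p = 0.504) and 0.82 ± 0.56 higher than in LD (adjusted p = 0.548). COL2A1 gave 0.78 ± 0.45 (adjusted p = 0.550) and −0.23 ± 0.42 (adjusted p = 0.862), the latter turning to 0.17 against LD of NN alone. None of the 10 probe sets was called in a comparison of muscles. The F test and SS against LD use LD values that also entered the choice of the genes. No weight is put on their p-values.

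Other genes of cartilage were examined through a list of 35, of which 20 are on the array and 12 were tested beside the 4 genes above. In LD from T0 to T12, 9 of the 12 were lower and 3 higher, with a median of −0.34 against −0.01 over 7484 genes. Of these 12, 3 were called lower and 1 higher, while 14.1% of all genes were called. CHAD, chondroadherin, a cartilage protein that binds cells, changed by −2.37 ± 0.52 (limma adjusted p = 0.0143), from 96.1 to 148.4 in CC, NC and NN at T0 to 9.53 to 40.0 at T12. COL11A2, another chain of type XI collagen, changed by −2.01 ± 0.44 (adjusted p = 0.0145). ACAN, the large aggregating proteoglycan of cartilage, changed by −1.12 ± 0.33 (adjusted p = 0.0477). The T12 signals of these 3 genes in CC, NC and NN lay under 47.4, so the sizes are uncertain. PRG4, the lubricating proteoglycan of joint surfaces, rose by 0.41 ± 0.12 (adjusted p = 0.0468).

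In CN against the other genotypes, 11 of the 12 cartilage genes were lower in LD at T0 (median −0.51, all genes −0.03) and 8 of 12 at T12 (median −0.33, all genes −0.06), with 0 called by limma and 1 at an unadjusted p under 0.05 at each age. In SS 8 of the 12 were higher in CN (median 0.11, all genes 0.00), with 0 called and 0 at that unadjusted p. The fibrillar collagens other than COL2A1 and COL11A1, 7 genes measured of 9 on the list, were all lower in CN in LD at each age, with a median of −0.57 at T0 and of −0.57 at T12. Of these 0 were called by limma and 3 at each age had an unadjusted p under 0.05, while 53.1% of all genes were lower at T0 and 56.4% at T12. With age in LD 6 of the 7 were lower and 3 called, beside 50.5% of all genes lower and 14.1% called. The 3 were COL11A2 and the type I chains COL1A1 (−1.49 ± 0.18, adjusted p = 9.25e-04) and COL1A2 (−0.74 ± 0.13, adjusted p = 0.00465).

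FRZB was set beside 35 other genes of Wnt signalling, of which 21 are on the array and 19 were tested. In CN in LD 14 of the 19 were lower at T12 (median −0.16) and 12 at T0 (median −0.19), and in SS 13 of 19 (median −0.09). Over all genes 56.4%, 53.1% and 50.1% were lower, with medians of −0.06, −0.03 and 0.00. In each of these 0 were called by limma, with 3, 1 and 1 at an unadjusted p under 0.05. With age 10 were higher and 9 lower, and 1 was called, beside 14.1% of all genes. GSK3B, a kinase that marks beta-catenin for breakdown, changed by −0.75 ± 0.16 (limma adjusted p = 0.0142). In SS against LD 14 of the 19 were higher and 1 was called, beside 3.53% of all genes. RSPO3, a secreted protein that strengthens Wnt signals, rose by 2.22 ± 0.42 (adjusted p = 0.0176). Its signal was 181.9 in SS of NN against 32.5 to 51.2 in LD of CC, NC and NN, where it may not be above background.

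Which transcripts ran most alike was read from Pearson correlations of log2 group values over the 12 groups, among 9968 or more tested probe sets of other symbols. The groups share muscles and ages, so these are descriptions. For COL11A1 the 5 highest were COL1A2 (0.972), IER3 (0.964), TNMD (0.961), COL1A1 (0.955) and COL2A1 (0.952). TNMD encodes tenomodulin, a membrane protein of tendon cells, and had group signals of 1063 to 1834 in CC, NC and NN of LD at T0, 783.4 in CN at T0, 974.7 in SS of CN and 379.7 in SS of NN. In LD at T12 it was at 571.8 in CC, 186.6 in NC, 167.0 in NN and 124.4 in CN, so CC stood apart here as for COL11A1. For COL2A1 they were both bright COL11A1 probe sets (0.975 and 0.952), MCTS1 (0.968), COL1A1 (0.948) and RPS6 (0.944).

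The genes most like CRTAC1 were ACLY (0.955), the enzyme that makes acetyl-CoA for fat synthesis, MRPL57 (0.953), GATM (0.948), an enzyme of creatine synthesis, TMEM183A (0.947) and the tubulin TUBB (0.944). For FRZB they were the protease CTSS (0.906), BCHE (0.899), ARHGEF40 (0.894), CCDC80 (0.882) and MSRB2 (0.876). None of the 4 genes themselves is among the 5 of CRTAC1 or FRZB. COL11A1 and COL2A1 correlated with CRTAC1 at 0.772 and 0.798 over 12 groups, but at −0.249 and 0.015 over the 8 groups at T12, where CRTAC1 is dim. With FRZB they correlated at −0.293 and −0.424.

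Over the 12 groups the summed markers of tendon and fascia, chondrocytes and fibroblasts moved with the collagens. Those of immune cells, muscle fibres and endothelium did not. In bulk tissue fewer cells of a type and less RNA per cell cannot be told apart. The summed signal of the 6 measured tendon and fascia markers (of 10 listed) was 7811 to 9908 in CC, NC and NN of LD at T0 and 6153 in CN. In LD at T12 it was 7155 in CC, 5309 in NC, 4857 in NN and 4366 in CN, and in the other muscles 9480 in SS of CN, 5843 in SS of NN, 6947 in SM and 7091 in ST. THBS4 alone made up most of this sum in every group, with 4015 in LD of NN and 3758 in LD of CN at T12. Log2 of that sum correlated with COL11A1 at 0.80 over 12 groups, with COL2A1 at 0.70, with CRTAC1 at 0.40 and with FRZB at 0.12. The 12 groups include the step with age that chose 3 of the genes, and over the 8 groups at T12 the values were 0.82, 0.50, −0.27 and 0.33 in the same order. The part of these cells in the collagen results was not tested.

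Of 11 chondrocyte markers 8 are on the array. Apart from COL2A1, the other 7 summed to 215.3 (LD of CN at T12) to 681.5 (LD of NC at T0), as means on the log scale. The link protein HAPLN1 and the type IX collagen chain COL9A1 never exceeded 38.7 and 53.5 on any array, which is under the highest array median of 59.7. The sum stood at 675.5 in SS of CN and 463.4 in SS of NN, and correlated with COL11A1 at 0.76 and with COL2A1 at 0.70 over 12 groups, and at 0.90 and 0.71 over the 8 at T12. COMP is also on the tendon and fascia list, so the correlations of these lists are not separate. In SS, CNMD was lower in CN (122.9) than in NN (140.1), while the other markers of the sum were higher. MATN1 and COL9A1 were highest in LD of NN at T12 (103.4 and 37.79). ACAN was highest in SS of CN (128.1), CNMD in SS of NN (140.1) and CHAD in LD of CC at T0 (148.4, beside 144.5 in NC). Only COMP (224.4, beside 221.9 in SS of CN) and the dim HAPLN1 were highest in LD of NC at T0, as the collagens were.

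All 8 fibroblast markers were measured. Their sum was 49980 in CN at T0 against 62150 to 71220 in the other genotypes, and 33570 in CN at T12 against 44440 to 55560, so it was low in LD of CN as FRZB was. In SS it was 52900 in CN and 50600 in NN. COL1A1, COL1A2 and COL3A1 made up most of the sum in every group. The sum correlated with COL11A1 at 0.86 and with FRZB at 0.17 over the 12 groups, and at 0.75 and 0.61 over the 8 at T12. Its part in the FRZB result was not tested.

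The sum of the 4 measured immune markers (of 5 listed) moved with FRZB more closely than did those of the other lists correlated, at 0.71 over 12 groups and 0.87 over the 8 at T12. That sum was 441.8 in LD of CN at T12 against 490 to 711.4 in the other genotypes, and 491.6 in SS of CN against 660.2 in NN. At T0 it was 383.6 in CN against 322.4 to 361.5. The markers did not all move alike. In SS, AIF1 (274.7 in CN, 397.4 in NN) and CD3E (79.24 and 138.6) were lower in CN. CD14 (94.97 and 89.14) and PTPRC (40.32 and 33.42) were higher there. In LD at T12, CD14 was 69.68 in CN, above the 29.15 of NN but below the 83.97 of CC and the 72.76 of NC. With COL11A1 and COL2A1 the sum correlated at −0.81 and −0.88 over 12 groups. The general leukocyte marker PTPRC never exceeded 61.7 on any array. Muscle fibre markers (7 of 9) came next for FRZB over 12 groups, at 0.62, and stood at 0.45 over the 8 at T12. Their sum in LD at T0 was 152300 in CN against 176700 to 188800 in the other genotypes. In LD at T12 it was 183700 in CN against 203900 to 222700. In SS it was higher in CN (229500) than in NN (216300). Endothelial markers (4 of 4) summed to 1776 to 2865 over the groups and correlated with FRZB at 0.14. Nerve and Schwann cell markers (4 of 7) summed to 302.8 to 541.4, and of 4 satellite cell markers only MYF5 was measured, at 42 or less on every array. The part of these cells was not tested. The GAPDH control probe sets give a 3′ over 5′ ratio that moves with RNA quality, and its log2 was −0.033 and 0.085 in LD of CN at T12, 0.043 and 0.066 in CC, and 0.187 to 0.246 in NC and NN. At T0 it was 0.225 and 0.230 in CN, inside the 0.131 to 0.307 of the others. In SS it was −0.027 and 0.087 in CN and 0.024 and 0.058 in NN. Its part in the FRZB result was not tested.

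**Figure D4:**
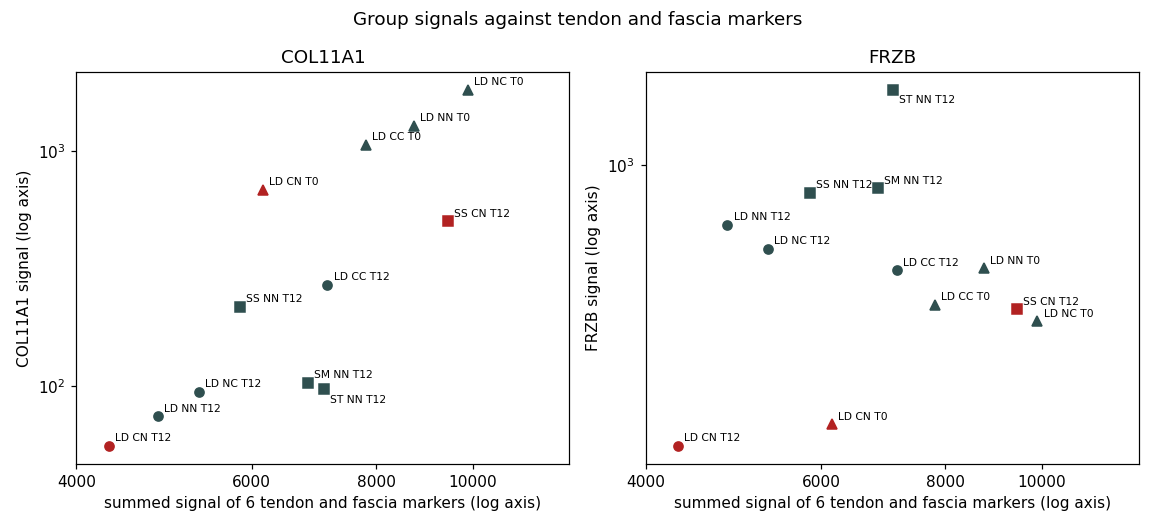
Each point is a group, with the summed signal of 6 tendon and fascia markers on the horizontal axis and the signal of COL11A1 (left) or FRZB (right) on the vertical axis, all log axes. CN is red, triangles are LD at T0, circles LD at T12 and squares the other muscles. THBS4 makes up most of the summed signal in every group. COL11A1 rises with the markers within LD at each age, and the 2 lowest FRZB values are LD of CN at T12 (263.5) and T0 (292.1).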

How the data were processed

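The deposited table holds linear MAS5 signal intensity per probe set, per the submitters' processing notes. The authors' scaling gives every array a 2% trimmed mean of 200.1. Signals at or below 1 were set to 1 and log2 was taken, and the 2 arrays of a group were averaged. Their log2 values correlated at 0.974 to 0.988 over probe sets with a mean log2 signal above 8. Of 24128 probe sets 112 controls were left out, and the 15664 whose log2 signal exceeded 5.64, the median of all group values, in at least 1 group were tested.

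All tests were two-sided and fitted with limma 3.58.1 under R 4.3.3, using eBayes with a trend on mean signal and Benjamini-Hochberg adjustment over every tested probe set. The 12 group values filled 8 cells. At each age the LD values of CC, of NC and of NN shared 1 cell of 3. This leaves 4 residual degrees of freedom, and groups of 1 value are assumed to vary like these genotypes. The procedure was checked on artificial data with known answers. Alternatives were quantile normalization, log2 of signal + 16, other filters, NN alone as comparator, arrays as separate values and leaving out each array.

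Symbols came from the platform table. All 4 also occur in the RefSeq sheep gene table. Members and gene lists were chosen with earlier results of these data known. The 4 genes were named on every probe set, list genes where called (up to 5 per list and comparison), and for likeness the 5 highest correlations. For a list gene with several probe sets the brightest was used. The lists were cartilage genes, fibrillar collagens, Wnt genes, and markers of muscle fibres and of chondrocytes, tendon and fascia, fibroblasts, nerve, satellite, endothelial and immune cells. The number of arrays limits the precision.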

Additional observations from a re-analysis of the deposited data

How the results depend on the processing

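Of 798 recomputed differences of the 4 genes (brightest probe sets), 777 kept their direction and their side of the threshold, 8 turned sign, 8 no longer passed and 5 newly passed. Many of these refits left out an array outside the comparison, where the difference itself could not change. The number kept is therefore no measure of robustness. Sign changes were those of CRTAC1 in CN at T0 (−0.61 with NN alone as comparator, −0.04 to 0.30 without 1 array, the lowest without LD CN T0 replicate 1), of the COL11A1 difference of age steps (0.48 with NN alone, 0.02 without LD CN T0 replicate 1, 0.19 without LD CN T12 replicate 2, in a range of −0.53 to 0.19) and of COL2A1 in SS against LD (0.17 with NN alone, 0.01 without LD NC T12 replicate 2, 0.05 without LD NN T12 replicate 1, in a range of −0.50 to 0.05). The FRZB difference in CN at T12 ranged from −1.51 to −1.30. The alternatives that ended its call stand beside that result.

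Counts of called probe sets moved more. For CN in LD at T12 (28) they were 11 with quantile normalization, 11 without a filter, 3 with NN alone and 1 to 422 without 1 array. For CN at T0 (27) they were 7 with quantile normalization, 76 with log2 of signal + 16, 53 with a stricter filter, 0 with NN alone and 3 to 270 without 1 array. With age (1830) the count was 241 with NN alone and 1220 to 1906 without 1 array. The difference of age steps (0) gave 2 with log2 of signal + 16 and 0 to 44 without 1 array. Without 1 array the count was 0 to 12 for CN in SS (0), 0 to 4 for SS minus LD (0), 88 to 279 for SS against SM and ST (156), 280 to 754 for SS against LD (463) and 123 to 392 for the 4 muscles (201). With NN alone SS against LD gave 129 and the 4 muscles 64.

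With 24 arrays as values and the group as a random block, which treats technical arrays nearly as independent, the counts were 269, 580, 2868, 171, 4, 494, 1150 and 894 in the order CN at T12, CN at T0, age, age steps, CN in SS, SS against SM and ST, SS against LD, and 4 muscles. With the replicate block added they were 246, 560, 2848, 146, 3, 511, 1135 and 853. FRZB in CN at T0 then passed (−0.86, adjusted p = 6.76e-04, and 9.33e-04 with the replicate block), as did FRZB with age (0.34, adjusted p = 0.0185 and 0.0218). The age comparison shares T12 values with the one that chose FRZB. Arrays of the same replicate number did not deviate together throughout (66 correlations, −0.411 to 0.544), so the numbers are not taken as pairs.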

Other observations

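A dim COL2A1 probe set, Bt.27971.1.S1_at, ran unlike the brightest probe set of its own gene and like FRZB. Its group signals in LD were 20.8 in CN against 45.2 to 77.4 in CC, NC and NN at T12, and 30.9 in CN against 45.9 to 58.4 at T0. CN lay below the other genotypes at both ages with no overlap of arrays, but under 47.4, so it may not be above background. The differences were −1.51 ± 0.45 at T12 (limma adjusted p = 0.251) and −0.78 ± 0.45 at T0 (adjusted p = 0.579), and did not pass. In SS it was also lower in CN (43.6) than in NN (78.0). Over the 12 groups it correlated with FRZB at 0.809 and with the brightest COL2A1 probe set at −0.027.

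The gene most like COL2A1 outside the collagens, MCTS1, varied only from 484.7 to 682.9 over the 12 groups, so a correlation of 0.968 joins a wide course with a narrow one.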
